A study of Mus musculus with 18 samples.

Results

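Mouse embryos lacking the maintenance DNA methyltransferase Dnmt1 were compared directly with embryos labelled as lacking the de novo methyltransferase Dnmt3b. The libraries titled Dnmt1 KO 1 to 3 and Dnmt3b KO 1, 2, 11 and 12 were chosen by their labels, and they make up 7 of the 18 libraries of the series. The genotypes were given as Dnmt1 null and Dnmt3b null, both on a 129S4/SvJae background, and every embryo was collected at E8.5 from matings of heterozygous parents. The series also held 7 wild-type (WT) and 4 Dnmt3a null libraries of the same stage and background. Each library was made from a single dissociated embryo with a droplet 3′ kit that counts molecules by unique molecular identifiers (UMIs). No other allele or treatment was named for any group. Null embryos lack the gene in all of their tissues, extra-embryonic ones included.

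Barcodes with at least 1500 mouse UMIs and at most 30% mitochondrial UMIs were kept as cells, which left 7553 Dnmt1 KO cells and 37559 cells labelled Dnmt3b KO. The 3 Dnmt1 KO libraries kept 1502, 3158 and 2893 cells with a median of 59616, 37276 and 6800 UMIs per cell, so that Dnmt1 KO 3 was the shallowest by far. In the libraries labelled Dnmt3b KO, 6239 to 10585 cells were kept per library with medians of 11550 to 28385 UMIs. Dnmt3b KO 1 and 2 shared 12249 barcodes, against at most 133 in any other pair of libraries, and were summed into 1 replicate (1+2). Of the barcodes kept as cells 8721 occurred in both, and 4536 of these had more UMIs in one library and 4147 in the other by over 0.5 on the log2 scale, so that the cells labelled Dnmt3b KO may include double counts. The labels do not say how these libraries are related. This left 3 replicates against 3. The UMIs of all cells kept from an embryo were added up, and levels are given as counts per 1000000 UMIs of that sum (CPM), in the order Dnmt1 KO 1, 2 and 3 and then Dnmt3b KO 11, 12 and 1+2. Dnmt3b KO 12 was female by its Y-linked sum of 0.0113 CPM and an Xist level of 503 CPM, and was counted with a later version of Cell Ranger than the other libraries. The other 5 replicates had Y-linked sums of 91.9 to 109 CPM. The reference used to count Dnmt3b KO 11 held human genes beside those of the mouse. Since nothing in the labels ties embryos to litters, the p-values measure only spread between embryos. EdgeR estimated that spread over all 17 replicates of the 4 groups, WT and Dnmt3a KO included, and not over these 3 against 3 alone.

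Methylation of cytosine in CpG dinucleotides is copied onto the new DNA strand after replication by Dnmt1, which Uhrf1 recruits, whereas Dnmt3a and Dnmt3b place methylation on unmethylated DNA. In the embryo after implantation, Dnmt3b is the more abundant of the latter enzymes, and CpG-rich promoters of germline genes are among its best known targets. Methylation laid down in the gametes marks 1 parental allele of imprinted genes and is carried through development by Dnmt1 without Dnmt3b.

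The transcript of the targeted gene was low in 1 of the 2 mutants. Dnmt1 (ENSMUSG00000004099, mm10 chr9:20907209-20959888, minus strand) stood at 14.9, 15.6 and 15.1 CPM in Dnmt1 KO and at 80.1, 112 and 128 CPM in the libraries labelled Dnmt3b KO, with 83.9 to 115 CPM in WT. All 3 Dnmt1 KO embryos lay below all others. On the log2 scale the difference was −2.70 (SE 0.12, edgeR adjusted p = 2.5e-10, n = 3 against 3). With the 2 mutants fitted alone it was −2.72 (edgeR adjusted p = 0.000206). Dnmt3b stood at 94.9, 114 and 125 CPM in Dnmt1 KO and at 63.4, 68.5 and 57.7 CPM in the libraries labelled Dnmt3b KO. The latter lay inside the WT range of 36.0 to 87.3 CPM, so the Dnmt3b transcript was not low where the label names its loss. A 3′ count outside the deleted part of a gene checks nothing, and the position of the deletion is not given in the labels. The log2 difference of 0.92 (SE 0.21, edgeR adjusted p = 0.0046) did not reach the fold change of 2 asked of a call, but did so without Dnmt1 KO 1 (1.05, edgeR adjusted p = 0.0051).

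Dnmt3a, the other de novo enzyme, set the libraries labelled Dnmt3b KO apart from each other. Its level was 37.8, 26.4 and 30.9 CPM in Dnmt1 KO, and 15.1, 7.60 and 32.4 CPM in the libraries labelled Dnmt3b KO. WT embryos held 23.5 to 34.9 CPM and the Dnmt3a KO embryos 7.59 to 11.9 CPM, so that Dnmt3b KO 12 lay at the level of Dnmt3a KO and Dnmt3b KO 11 between the groups. The difference of 0.90 (SE 0.31, edgeR adjusted p = 0.037) was not called, and without Dnmt3b KO 1+2 it was 1.49 and called. Values without Dnmt3b KO 11 and 12 are therefore given beside many of the results. That leaves 1 replicate on the Dnmt3b side, which is assumed to vary like the other groups.

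Of 5 methylation writers tested, Dnmt3l was called higher and Dnmt1 lower in Dnmt1 KO (median 0.90), against 3.85% and 4.94% of all genes. Dnmt3l, a cofactor of the de novo enzymes that has no catalytic activity, stood at 9.72, 38.8 and 10.2 CPM in Dnmt1 KO and at 0.793, 0.876 and 0.342 CPM in the libraries labelled Dnmt3b KO. The groups did not overlap, Dnmt1 KO 2 was the highest, and the log2 difference was 4.98 (SE 0.85, edgeR adjusted p = 0.000549). With the cells of the extra-embryonic ectoderm-like, extra-embryonic endoderm-like and parietal endoderm-like classes left out it was 1.34 (edgeR adjusted p = 0.0041). Extra-embryonic (ExE) cells or classes left out means these classes throughout, so extra-embryonic mesoderm-like, allantois-like and unnamed cells stayed in. Dnmt1 KO 2 also held the largest share of trophoblast-like cells, at 31.1% against 5.53% and 4.70% in Dnmt1 KO 1 and 3. Without Dnmt3b KO 11 and 12 the difference was 5.999 and missed the threshold (edgeR adjusted p = 0.0182), and Dnmt1 was then the one writer called. Uhrf1 stood at 82.5, 87.6 and 90.8 CPM in Dnmt1 KO and at 122, 155 and 139.9 CPM in the libraries labelled Dnmt3b KO.

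The 2 mutants differed in the shares of most of their cell classes. Clustering the cells gave 44 clusters, of which 36 could be named from marker genes and fell into 20 classes. Genes of most lists described here were left out of the clustering. Housekeeping, cell cycle, and glycolysis and hypoxia genes could enter, as could markers on no other list. Epiblast-like cells are named by markers of the epiblast, from which the embryo proper forms. They made up 16.6%, 9.02% and 10.6% of the cells of Dnmt1 KO 1, 2 and 3, and 0.0477%, 0.257% and 0.0622% in Dnmt3b KO 11, 12 and 1+2. Cluster 19 held 99.8% of them in Dnmt1 KO, and its leading genes were Pou5f1, Pim2 and Wnt8a, with Cdx1 further down. Extra-embryonic (ExE) ectoderm-like cells, the trophoblast lineage, made up 5.53%, 31.1% and 4.70% in Dnmt1 KO, and at most 0.134% in the libraries labelled Dnmt3b KO. ExE mesoderm-like cells made up 24.0%, 14.8% and 16.6% against 5.37%, 10.6% and 6.09%. Immune-like cells made up 8.32%, 7.73% and 4.63% against 0.372%, 1.23% and 0.451%. In each of these classes all Dnmt1 KO embryos lay above all embryos labelled Dnmt3b KO, and Dnmt1 KO 2 stood apart with the largest share of trophoblast.

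Several classes of embryonic tissue were rare in Dnmt1 KO. Cardiomyocyte-like cells made up 0.133%, 0% and 0% of Dnmt1 KO and 2.32%, 3.73% and 3.36% of the libraries labelled Dnmt3b KO, and allantois-like cells 0.266%, 0.0633% and 0.519% against 9.41%, 6.81% and 5.57%. Gut-like cells were fewer in each Dnmt1 KO embryo (2.06%, 1.42% and 1.42%) than in any labelled Dnmt3b KO (6.43%, 8.14% and 11.2%). Erythroid-like cells made up 0.599%, 0.348% and 3.94% against 8.78%, 9.18% and 12.1%. Forebrain and midbrain-like, hindbrain and spinal cord-like, neural crest-like and surface ectoderm-like cells had a count of 0 in every Dnmt1 KO embryo, which allows shares of up to 0.200%, 0.0950% and 0.104% in Dnmt1 KO 1, 2 and 3. These limits cover counting error only, and they concern cells given these names, since unnamed cells were left out of the classes. The unnamed cluster 20, whose leading genes included the neural genes Pax6, Sox1 and Sox2, held 552 of the 25381 cells drawn for clustering (at most 1500 per replicate), and 1.81% of the 552 came from Dnmt1 KO. The unnamed cluster 31, led by genes such as Mef2c, Tbx5 and Myocd of the heart field, held 443 of the drawn cells. Of these 54.6% came from Dnmt1 KO and 12.4% from the libraries labelled Dnmt3b KO. Its best match was the cardiomyocyte class (score 1.39), with 7 of 8 cardiomyocyte markers passing the limits used for naming. The name was withheld because its leading genes held more markers of another class. The cardiomyocyte-like shares above therefore leave these cells out, and heart field cells were not absent from Dnmt1 KO. The unnamed cluster 15, led by Pou5f1, held 635 of the drawn cells, and 76.7% of these came from Dnmt1 KO.

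Over the 20 classes, with unnamed cells left out, 4 were higher and 14 lower in Dnmt1 KO with no overlap between the groups. An exact two-sided permutation test of 3 against 3 embryos cannot go below p = 0.1, and each of the 18 reached this value (adjusted p = 0.11). No class share could thus pass a threshold of 0.05. ExE endoderm-like cells overlapped between the mutants, at 28.4%, 26.9% and 9.23% in Dnmt1 KO against 14.1%, 10.5% and 10.9%, as did the rare parietal endoderm-like cells. Unnamed cells made up 12.1%, 7.09% and 47.0% in Dnmt1 KO, most in the shallow Dnmt1 KO 3, and 18.1% to 23.9% in the libraries labelled Dnmt3b KO. Among them was cluster 14, with 652 of the drawn cells, whose best match was endothelium (score 1.21, 6 markers passing). Its name was withheld because its cells were shallow. Of these cells 23.16% came from Dnmt1 KO and 11.04% from the libraries labelled Dnmt3b KO. The endothelium-like class, lower in Dnmt1 KO, leaves them out, and whether endothelial cells as a whole were fewer was not tested. 4 named clusters, 1 each of the ExE mesoderm-like, ExE endoderm-like, epiblast-like and ExE ectoderm-like classes, drew 95.7% to 99.0% of their cells from Dnmt1 KO, so that a class in Dnmt1 KO need not hold the same cells as its namesake in the other mutant.

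**Figure D1:**
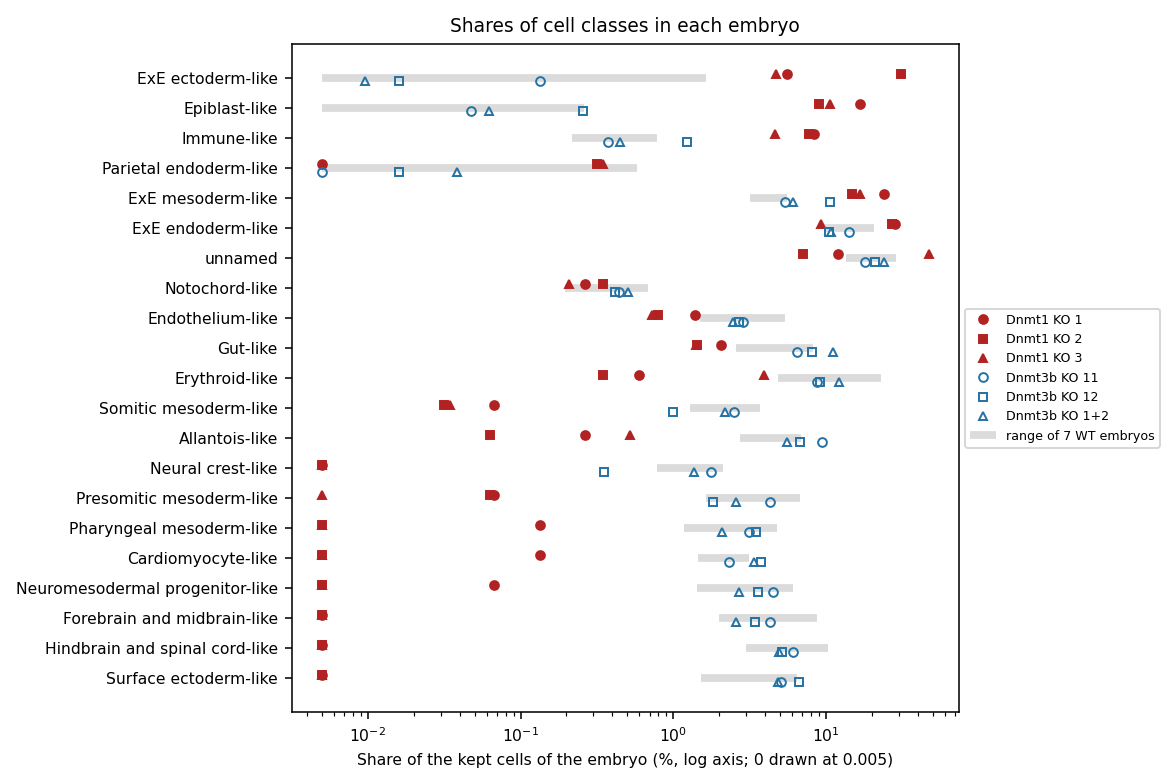
Share of each cell class among the kept cells of each embryo, in percent on a log axis with 0 drawn at 0.005. Filled red symbols are the 3 Dnmt1 KO embryos, open blue symbols the 3 replicates labelled Dnmt3b KO, and grey bars the range of the 7 WT embryos; ExE ectoderm-like and epiblast-like cells lie at 4.70% or more in each Dnmt1 KO embryo and at 0.257% or less in each embryo labelled Dnmt3b KO.

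For several of these tissues marker genes were called in the whole-embryo sums. The classes were named from these same markers, so the calls are not independent of the shares. Of the markers tested, 7 of 8 for cardiomyocytes were called lower in Dnmt1 KO (median log2 difference −2.54), 6 of 7 for somitic mesoderm (−1.69), 5 of 7 for neuromesodermal progenitors (−1.59), 4 of 5 for allantois (−1.45), 5 of 8 for hindbrain and spinal cord (−2.20) and 4 of 7 for neural crest (−2.28). None of these was called higher. The median over all 18855 genes tested was 0.02, with 3.85% called higher and 4.94% lower. ExE ectoderm markers had 4 of 8 called higher (2.83) and epiblast markers 3 of 6 higher and 1 lower (2.03). For other lists the medians did not follow the shares. ExE mesoderm markers had 1 of 6 higher and 1 lower (−0.18). Gut markers had 3 of 8 lower and none higher, the direction of their share, but a median of 0.08. Of 7 immune markers edgeR called none (1 higher and 2 lower at an unadjusted p under 0.05, none by DESeq2; median −0.15). Single libraries decided part of these counts. Somitic mesoderm had 2 called without Dnmt1 KO 1, Dnmt1 KO 2 or Dnmt3b KO 11, and epiblast 1 higher without any of these or without Dnmt3b KO 12. Without Dnmt3b KO 11 and 12 together, neuromesodermal progenitors and allantois had 2 lower each and ExE ectoderm 1 higher. Epiblast had then no call by edgeR, with 5 higher and 1 lower at an unadjusted p under 0.05. Since each sum joins all cells of an embryo, fewer cells of a type and less RNA per cell cannot be told apart in it.

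To be called, a gene had to change by 2-fold or more with an adjusted p below 0.01 in edgeR's quasi-likelihood test, the thresholds of the study. Of 18855 genes tested in whole embryos, 1657 (8.79%) were called, 726 of them (3.85%) higher and 931 (4.94%) lower in Dnmt1 KO. The groups did not overlap for 690 of the 726 and 927 of the 931. A call already asks for a large difference between these groups, so this separation is no further evidence. For 590 of the higher and 584 of the lower genes, all 7 WT embryos lay on the side of the libraries labelled Dnmt3b KO, measured from the midpoint of the 2 group means. For 2 and 13 genes all WT embryos lay on the side of Dnmt1 KO. Neither separation nor the side of WT was counted over all genes tested. The counts rested on single libraries. Without Dnmt1 KO 2 they fell to 445 and 501, without Dnmt3b KO 11 to 397 and 754, and without Dnmt3b KO 11 and 12 to 312 and 496. They were 963 and 1237 without Dnmt1 KO 3.

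Comparing within a class removes part of the difference in cell types. Of the named classes, 4 had at least 25 cells in 3 replicates of each mutant. In ExE endoderm-like cells, the yolk sac lineage that takes up nutrients, 193 of 14288 genes (1.35%) were called higher and 252 (1.76%) lower in Dnmt1 KO. In ExE mesoderm-like cells 632 of 13084 genes (4.83%) were higher and 661 (5.05%) lower, in gut-like cells 487 of 13426 (3.63%) and 411 (3.06%), and in immune-like cells 245 of 8882 (2.76%) and 250 (2.81%). Of 8644 genes tested in all 4 classes, 22 were higher and 17 lower in each of them. Among all 18855 genes tested in whole embryos, 56 were called in opposite directions in different classes. Single libraries decided part of these counts. In ExE endoderm-like cells the lower calls were 77, 115 and 128 without Dnmt1 KO 1, 2 and 3 and 110 without Dnmt3b KO 11, and the higher ones 112 without Dnmt1 KO 1 and 110 without Dnmt3b KO 11. The lower calls in ExE mesoderm-like cells were 413 without Dnmt1 KO 3. In gut-like cells 312 were higher and 237 lower without Dnmt1 KO 1, and 269 lower without Dnmt1 KO 3. In immune-like cells 119, 114 and 108 were higher and 153, 132 and 149 lower without Dnmt1 KO 1, 2 and 3, and 141 were higher without Dnmt3b KO 11.

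The class names held less well in Dnmt1 KO. Within immune-like cells, 2 of 6 immune markers were called lower in Dnmt1 KO (median −2.72), and 4 of 4 megakaryocyte markers were lower. In ExE mesoderm-like cells 4 of 6 presomitic, 2 of 7 neuromesodermal, 3 of 3 epiblast and 2 of 3 intermediate mesoderm markers were called higher, whereas of the 6 markers of ExE mesoderm itself 2 were lower and none higher (median −0.72). Most ExE endoderm-like cells of Dnmt1 KO (68.5%) came from cluster 9, whereas 50.6% of those labelled Dnmt3b KO came from cluster 2. In ExE mesoderm-like cells, cluster 7 held 87.5% of the Dnmt1 KO cells, and clusters 30 and 36 together most of the others. Values by class below are therefore comparisons of differently composed cells. With at least 50 cells asked per class and embryo, the ExE endoderm-like and ExE mesoderm-like classes alone could be tested.

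**Figure D2:**
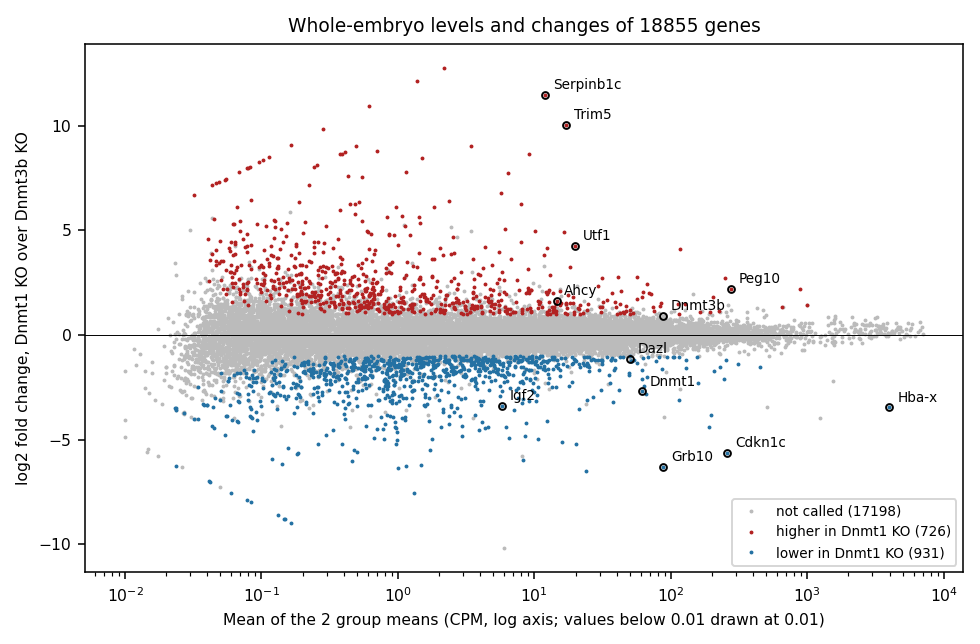
Log2 fold change of Dnmt1 KO over the libraries labelled Dnmt3b KO against the mean level of the groups in CPM (log axis) for 18855 genes. Red points are the 726 genes called higher and blue points the 931 called lower in Dnmt1 KO, grey points were not called, and labelled genes are described in the text.

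A set of genes was high in Dnmt1 KO and all but silent in the other mutant. 8 called genes had means of at least 5 CPM in Dnmt1 KO and under 0.5 CPM in WT and the libraries labelled Dnmt3b KO. 6 of them were named by rule, Trim5, Serpinb1c, AC159200.1, Clvs1, Zfp575 and Apoh, and 2 after their values were seen, the Y-linked Usp9y and AU018091. Trim5 (chr7), a restriction factor against retroviral capsids, stood at 35.9, 33.4 and 33.0 CPM in Dnmt1 KO, from 3837, 4587 and 2811 UMIs. The libraries labelled Dnmt3b KO held 1, 7 and 18 UMIs of it in all, and the 7 WT embryos together 91. It belongs to a family of closely related neighbouring genes, so its count depends on how reads shared by copies were treated.

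Serpinb1c (chr13), a member of the clade B serpins, which inhibit proteases inside cells, stood at 37.9, 22.4 and 11.4 CPM in Dnmt1 KO (4054, 3077 and 968 UMIs), against 3, 3 and 0 UMIs in the libraries labelled Dnmt3b KO. Apoh, a plasma glycoprotein normally made by the liver, stood at 8.67, 6.93 and 4.81 CPM (927, 951 and 410 UMIs) against 4, 1 and 5 UMIs. The unnamed transcript AC159200.1 stood at 24.6, 14.9 and 14.7 CPM against 0.00381, 0.158 and 0.00967 CPM. None of the 3 overlapped between the groups, and all of them were called higher in each of the 4 classes as well as in the whole embryo. Serpinb1c and the polycystin family gene Pkd1l2 were among the leading genes of cluster 9, so their calls in ExE endoderm-like cells were not independent of the clustering.

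Clvs1, which encodes a lipid-binding protein of clathrin-coated vesicles, stood at 16.5, 12.8 and 17.7 CPM in Dnmt1 KO and at 0.130, 0.226 and 0.300 CPM in the libraries labelled Dnmt3b KO (log2 difference 6.27, SE 0.40, edgeR adjusted p = 2.98e-08). Zfp575, a zinc finger gene, stood at 10.2, 8.51 and 16.9 CPM against 0.286, 0.407 and 0.461 CPM (5.06, SE 0.31, edgeR adjusted p = 2.04e-08). Pkd1l2 stood at 56.7, 27.7 and 11.7 CPM against 0.423, 2.65 and 0.409 CPM (4.91, SE 0.71, edgeR adjusted p = 0.000135). WT held 0.140 to 0.428 CPM of Clvs1 and 0.303 to 0.482 CPM of Zfp575, and for both genes Dnmt3b KO 11 lay just below the lowest WT embryo and the other 2 replicates within WT. For Pkd1l2 (WT 0.204 to 0.411 CPM) Dnmt3b KO 12 was the highest of its group.

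Rhox13, a homeobox gene of the X-linked Rhox cluster normally found in germ cells, was on in Dnmt1 KO at 20.6, 20.02 and 25.4 CPM. In the libraries labelled Dnmt3b KO it stood at 0.202, 4.84 and 0.0580 CPM, from 53, 856 and 18 UMIs, and in WT at 0 to 0.0117 CPM. The groups did not overlap, and the female Dnmt3b KO 12 was far above the other 2. The log2 difference was 3.85 (SE 0.97, edgeR adjusted p = 0.00766). The call was lost when any of the Dnmt1 KO embryos was left out (3.71 to 3.92, adjusted p 0.0123 to 0.0186) and without Dnmt3b KO 11 (3.32, adjusted p = 0.0274).

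Promoters of these genes and of the germline genes described next are shown as examples. Promoter sequence here is RefSeq sequence of GRCm38.p6, from 250 bases before to 50 after the start that RefSeq gives the gene, and was matched for 13627 of 18839 tested genes with a unique name. The 5 shown were chosen as germline genes active in both mutants (Dazl, Rpl39l) and genes near silence in WT (Trim5, Apoh, Rhox13), with every CpG in capitals. Dazl lies on the minus strand at chr17:50293571-50293870 with 28 CpGs and Rpl39l on the plus strand at chr16:10169978-10170277 with 17. Trim5 lies on the minus strand at chr7:104288057-104288356 with 1 CpG, Apoh on the plus strand at chr11:108395047-108395346 with 5, and Rhox13 on the plus strand at chrX:38120590-38120889 with 5. The GENCODE annotation used for the other positions starts Apoh at 108343354, so that the window of Apoh lies inside the gene as annotated there, and starts Rhox13 at 38121219, after the end of its window.
Dazl: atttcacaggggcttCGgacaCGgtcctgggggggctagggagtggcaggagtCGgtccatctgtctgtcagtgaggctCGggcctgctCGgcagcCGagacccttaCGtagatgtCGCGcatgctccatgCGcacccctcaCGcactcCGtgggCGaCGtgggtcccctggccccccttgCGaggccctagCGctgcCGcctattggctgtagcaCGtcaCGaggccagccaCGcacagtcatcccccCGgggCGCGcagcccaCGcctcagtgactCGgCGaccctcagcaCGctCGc
Rpl39l: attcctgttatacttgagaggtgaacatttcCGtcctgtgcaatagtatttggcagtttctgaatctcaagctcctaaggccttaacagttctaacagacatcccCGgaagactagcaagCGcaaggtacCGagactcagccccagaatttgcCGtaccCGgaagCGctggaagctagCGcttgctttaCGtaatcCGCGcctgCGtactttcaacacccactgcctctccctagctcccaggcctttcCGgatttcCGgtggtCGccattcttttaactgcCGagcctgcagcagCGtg
Trim5: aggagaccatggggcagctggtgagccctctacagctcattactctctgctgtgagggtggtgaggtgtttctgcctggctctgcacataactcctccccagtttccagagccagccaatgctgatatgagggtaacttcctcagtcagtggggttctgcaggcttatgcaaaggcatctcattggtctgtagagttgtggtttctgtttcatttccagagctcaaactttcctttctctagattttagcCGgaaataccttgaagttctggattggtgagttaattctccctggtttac
Apoh: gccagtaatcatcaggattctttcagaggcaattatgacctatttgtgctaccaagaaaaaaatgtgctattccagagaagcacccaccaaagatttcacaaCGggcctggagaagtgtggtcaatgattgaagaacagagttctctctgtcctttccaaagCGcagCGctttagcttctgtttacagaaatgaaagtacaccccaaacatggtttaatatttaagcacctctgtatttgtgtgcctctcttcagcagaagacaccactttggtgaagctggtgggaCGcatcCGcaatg
Rhox13: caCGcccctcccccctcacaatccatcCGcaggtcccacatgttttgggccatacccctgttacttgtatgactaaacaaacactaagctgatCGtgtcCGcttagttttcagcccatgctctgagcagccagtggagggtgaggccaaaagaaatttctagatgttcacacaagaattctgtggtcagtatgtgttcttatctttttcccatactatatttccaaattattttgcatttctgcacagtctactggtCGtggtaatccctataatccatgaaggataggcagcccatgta

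Over all matched genes the median promoter held 18 CpGs. Genes called higher in Dnmt1 KO had a median of 8 (491 of 726 matched), and those called lower 14 (627 of 931). Members of 4 germline lists had a median of 17 (74 of 89 matched), and 4 of the 8 genes low in the other mutant and WT a median of 3.5. The single values overlapped, with 12 CpGs for Usp9y against 2 for Tex19.2 and 3 for Nanos3 among the germline members, and no test of this was run. The motif CACGTG, an E-box that reads the same on both strands, stood in 9.43% of all matched promoters, in 5.70% of those of higher genes and in 25.7% of the germline members. The motif TTCCCGCC, searched on both strands, as recognised by E2F proteins including the germline repressor E2F6, stood in 3.70%, 1.83% and 12.2%. None of the 5 printed windows held either motif. These are counts of letters, and no methylation was measured in these libraries.

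Genes of the germline were on in both mutants. Counting members at 1 CPM or more, the genes of the piRNA pathway, which silences transposons in germ cells, numbered 14, 14 and 15 in Dnmt1 KO, 14, 15 and 14 in the libraries labelled Dnmt3b KO and 7 to 8 in WT, of 21. Meiotic chromosome genes numbered 19, 18 and 20, then 16, 21 and 14, and in WT 3 to 5, of 33. Germline regulators numbered 13, 14 and 13, then 13, 13 and 12, and in WT 3 to 5, of 21. Germline copies of somatic genes numbered 15, 15 and 15, then 13, 14 and 11, and in WT 4 to 8, of 23. The mutants overlapped or met in each list but the last, where Dnmt1 KO lay just above, and every mutant embryo lay above every WT embryo in all 4.

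The summed levels differed between the mutants only in part, and Dnmt3b KO 12 was the exception in its group. The piRNA genes summed to 183, 217 and 160.1 CPM in Dnmt1 KO and to 83.6, 234 and 74.6 CPM in the libraries labelled Dnmt3b KO. Germline regulators summed to 123, 143 and 131 CPM against 73.7, 335 and 54.7 CPM, and germline paralogues to 317, 322 and 342 CPM against 153, 342 and 95.8 CPM. Meiotic genes summed to 186, 199.7 and 193 CPM against 126, 193 and 118 CPM. Dnmt3b KO 12 thus reached or passed the level of Dnmt1 KO in each of the 4 sums, whereas the other 2 replicates lay below it. That library was also the female one, had the lowest Dnmt3a and was counted with another program version. It also held the most Prl8a2, a member of the maternal decidua list, at 2.77 CPM against 0.00381 CPM in Dnmt3b KO 11 and 0.451 CPM in 1+2. Dnmt1 KO held 0.0187, 0.0219 and 0 CPM of it. The part of these traits in the result was not tested.

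The members called were few in number. Over all genes 3.85% were higher and 4.94% lower, and in the main fit the 2 or 3 higher members per list were too few to set these lists apart from that share. In the piRNA list 2 of 21 were higher (median 0.40), among meiotic genes 2 of 32 (0.47), among regulators 2 of 19 (0.63) and among paralogues 3 of 18 (1.07), and none was lower. Without Dnmt3b KO 12 the counts were 6 higher and 1 lower, 4 higher, 2 higher of 20, and 8 higher. Without any one of the other 5 replicates they were 1 to 3, 1 to 2, 1 to 3 and 1 to 2 higher. The medians moved with single libraries too. That of the piRNA list was 0.78 without Dnmt3b KO 12, 0.01 without Dnmt3b KO 11 and −0.05 without Dnmt3b KO 1+2, and that of the regulators 1.25, 0.45 and 0.30. Without Dnmt3b KO 11 and 12 together 4 piRNA genes were called, and the medians were 0.89 for the piRNA list, 1.44 for the regulators and 2.14 for the paralogues. Rnf17, a Tudor domain protein of male germ cells, stood at 27.5, 31.0 and 28.3 CPM in Dnmt1 KO and 10.8, 14.2 and 14.6 CPM in the libraries labelled Dnmt3b KO, with 4.43 to 7.67 CPM in WT. The 3 groups lay apart in that order, and the log2 difference between the mutants was 1.25 (SE 0.18, edgeR adjusted p = 0.000144). Tex15, which acts with the piRNA machinery and in meiotic recombination, stood at 25.1, 35.7 and 27.4 CPM against 7.39, 11.6 and 8.31 CPM (1.81, SE 0.25, edgeR adjusted p = 9.61e-05), again with WT lowest at 2.21 to 5.66 CPM. Dppa5a, an RNA-binding protein of germ and stem cells, stood at 16.5, 27.8 and 18.5 CPM against 9.12, 8.47 and 6.64 CPM (1.47, SE 0.28, edgeR adjusted p = 0.00121).

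Other called members lost their call when any of several embryos was left out. Sycp2, part of the synaptonemal complex, stood at 3.51, 2.06 and 5.09 CPM in Dnmt1 KO and 0.778, 1.36 and 0.957 CPM in the libraries labelled Dnmt3b KO (1.90, SE 0.41, edgeR adjusted p = 0.0027). Its call was lost without Dnmt1 KO 3 (1.51, adjusted p = 0.0107), without Dnmt3b KO 1+2 (1.79, adjusted p = 0.0112) and without Dnmt3b KO 11 (1.76, adjusted p = 0.0167). Piwil2, a piRNA-binding protein, stood at 4.43, 5.22 and 3.26 CPM against 1.45, 3.30 and 1.35 CPM (1.20, edgeR adjusted p = 0.00596), with the 3.30 CPM of Dnmt3b KO 12 just above the lowest Dnmt1 KO embryo. It was lost without Dnmt1 KO 1 or 2 and without Dnmt3b KO 1+2 or 11 (0.94 to 1.20, adjusted p 0.0169 to 0.0356). Taf7l (a testis form of a transcription initiation factor; 6.46, 4.86 and 3.43 CPM against 2.14, 2.60 and 2.04 CPM, adjusted p = 0.00697) was lost without Dnmt1 KO 1 or 2 and without each replicate labelled Dnmt3b KO, at 1.01 to 1.28. Of the paralogues, Cox6b2 (the testis form of a cytochrome oxidase subunit; 1.29, adjusted p = 0.00566) was lost without Dnmt1 KO 3 (0.90), Dnmt3b KO 1+2 (1.06) or Dnmt3b KO 11 (1.21). Ldhc (the testis lactate dehydrogenase; 1.49, adjusted p = 0.00306) was lost without Dnmt1 KO 2 (1.31) or Dnmt3b KO 1+2 (1.28).

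Some abundant germline transcripts were high in both mutants. Dazl, an RNA-binding protein that licenses germ cells, stood at 30.4, 26.5 and 30.1 CPM in Dnmt1 KO and at 14.6, 195 and 2.44 CPM in the libraries labelled Dnmt3b KO, against 0.0912 to 0.258 CPM in WT. The embryos labelled Dnmt3b KO thus spread on both sides of Dnmt1 KO. Rpl39l, a germline form of a ribosomal protein, stood at 131, 139 and 152 CPM against 57.9, 119 and 32.1 CPM, with 0.946 to 3.08 CPM in WT. Tex19.1, which restrains transposons in germ cells and placenta, stood at 61.6, 95.2 and 48.5 CPM against 24.6, 96.9 and 15.8 CPM, and the chaperone Fkbp6 at 50.7, 63.4 and 39.3 CPM against 20.4, 33.7 and 12.8 CPM. Dnmt3b KO 12 lay nearest to Dnmt1 KO, or beyond it, for all 4 of these genes. Syce2, a synaptonemal complex gene, was also abundant but nearly as high in WT (52.0 to 59.8 CPM), at 68.9, 84.6 and 75.2 CPM in Dnmt1 KO and 62.5, 73.9 and 64.1 CPM in the libraries labelled Dnmt3b KO.

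**Figure D3:**
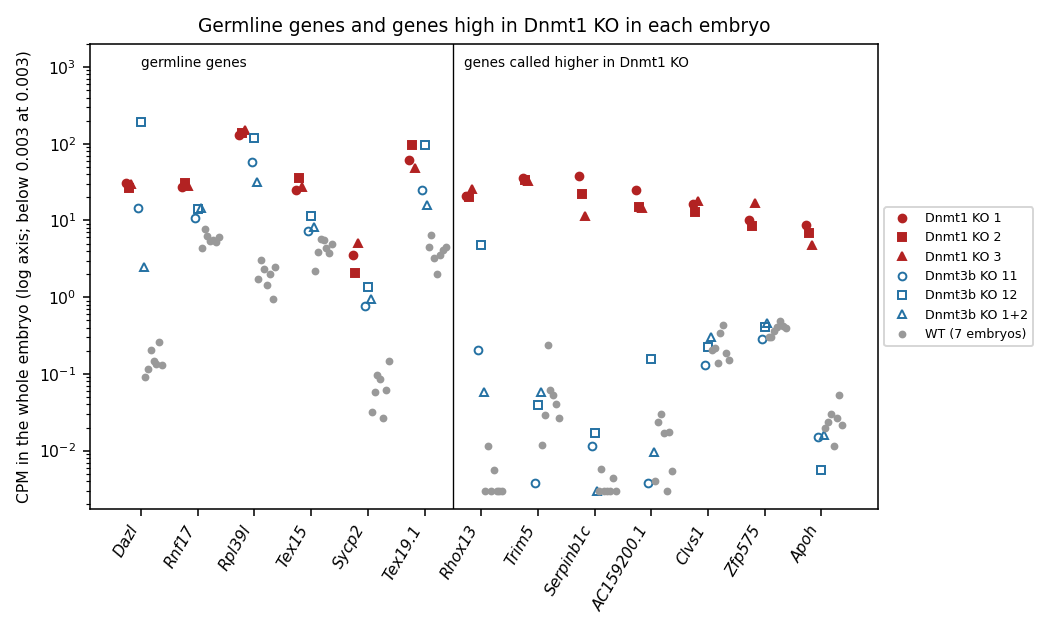
Level of 13 genes in each embryo in CPM on a log axis, with values below 0.003 drawn at 0.003. Filled red symbols are Dnmt1 KO, open blue symbols the replicates labelled Dnmt3b KO and grey points the 7 WT embryos; the 6 germline genes on the left are above WT in both mutants, and the genes on the right are at or near WT in the libraries labelled Dnmt3b KO except Rhox13, which lies at 4.84 CPM in Dnmt3b KO 12.

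X-linked genes of testis and placenta were also in part higher in Dnmt1 KO. Of the Rhox genes 1 of 10 was called (median 1.21), and of other X-linked genes 6 of 23 (median 1.27), none of them lower. Since 3.85% of all genes were called higher, 1 call of 10 says little about the Rhox list. Without the female Dnmt3b KO 12 the counts were 5 (2.60) and 12 (1.96). EdgeR called no Rhox gene without Dnmt1 KO 1, Dnmt1 KO 2 or Dnmt3b KO 11 (5, 3 and 2 higher at an unadjusted p under 0.05), and their median was then 1.39, 0.62 and 0.91. Without Dnmt3b KO 11 and 12 together 3 of 12 Rhox genes were called (3.18) and 5 of 24 other X-linked genes (2.34). The count of other X-linked genes was 2 without Dnmt1 KO 1, 3 without Dnmt1 KO 2 and 2 without Dnmt3b KO 11. Over the whole X chromosome 53 of 687 genes (7.71%) were called higher and 24 (3.49%) lower. Usp26, a testis deubiquitinase, stood at 22.5, 17.2 and 28.8 CPM in Dnmt1 KO against 1.48, 7.29 and 1.46 CPM, and at 0.0536 to 0.476 CPM in WT (2.88, SE 0.74, edgeR adjusted p = 0.00832). The groups did not overlap, but the call was lost without any of the Dnmt1 KO embryos and without Dnmt3b KO 1+2 or 11 (2.47 to 3.04, adjusted p 0.0165 to 0.0409). Trap1a, a tumour antigen normally made by trophoblast, stood at 342, 415 and 173 CPM against 77.7, 132 and 74.8 CPM (1.82, edgeR adjusted p = 0.00104), in WT at 47.3 to 130.0 CPM. Rhox5, the most abundant gene of its cluster, stood at 607, 868 and 316 CPM against 201, 406 and 170.0 CPM. For Rhox5 the groups overlapped, since Dnmt1 KO 3 lay below Dnmt3b KO 12.

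Part of the imprinted genes differed between the mutants. Grb10, an adaptor that dampens insulin signalling and is expressed from the maternal allele in most tissues, stood at 1.76, 1.27 and 3.09 CPM in Dnmt1 KO, and at 149.6, 156 and 215 CPM in the libraries labelled Dnmt3b KO, inside the WT range of 148 to 234 CPM. The log2 difference was −6.31 (SE 0.29, edgeR adjusted p = 2.5e-10), and Grb10 was lower in ExE endoderm-like (−5.98), ExE mesoderm-like (−6.52), gut-like (−7.70) and immune-like cells (−3.81). Cdkn1c, a maternally expressed inhibitor of cyclin-dependent kinases, stood at 11.2, 9.70 and 7.67 CPM against 448, 559.6 and 519 CPM, with 221 to 392 CPM in WT. All Dnmt1 KO embryos lay far below all others, and every embryo labelled Dnmt3b KO lay above every WT embryo. The difference between the mutants was −5.64 (SE 0.23, edgeR adjusted p = 1.53e-10), with −4.75 to −5.10 in the 4 classes.

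Klf14, a maternally expressed transcription factor gene without introns, stood at 0.243, 0.175 and 0.0821 CPM in Dnmt1 KO against 1.81, 0.848 and 1.70 CPM (−3.01, SE 0.36, edgeR adjusted p = 2.33e-05). H19, a maternally expressed noncoding RNA next to Igf2, went the other way at 1721, 1471 and 1084 CPM against 442, 532 and 751 CPM, with 414 to 548 CPM in WT (1.42, SE 0.24, edgeR adjusted p = 0.000481). Igf2, the paternally expressed growth factor, stood at 0.439, 1.85 and 0.457 CPM against 7.63, 7.84 and 16.2 CPM, with 6.93 to 12.03 CPM in WT (−3.37, SE 0.47, edgeR adjusted p = 9.58e-05). The neighbours H19 and Igf2 thus moved in opposite directions, with no overlap for either. Ascl2, a maternally expressed regulator of trophoblast, stood at 4.66, 59.4 and 6.15 CPM against 1.58, 1.48 and 1.23 CPM (4.15, SE 0.87, edgeR adjusted p = 0.00235). It was highest in the trophoblast-rich Dnmt1 KO 2, its call was lost without that embryo (2.01, adjusted p = 0.0289), without Dnmt3b KO 1+2 (4.03) and without Dnmt3b KO 11 (4.28), and it was −0.24 when cells of ExE classes were left out.

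Of 28 genes on the maternally expressed list, 2 were called higher and 9 lower in Dnmt1 KO (median −0.47). Of 29 on the paternally expressed list, 6 were higher and 4 lower (median 0.08). In the whole embryo 3.85% of all genes were called higher and 4.94% lower. Zim1, a zinc finger gene of the Peg3 cluster, stood on the paternal list although it is known as maternally expressed, and with Zim1 moved the counts were 2 and 10 of 29 maternal and 6 and 3 of 28 paternal genes. By class the paternal list had 5 higher and 4 lower of 27 in ExE endoderm-like cells, 7 and 4 of 28 in ExE mesoderm-like, 8 and 6 of 29 in gut-like and 6 and 1 of 19 in immune-like cells. The maternal list had 2 higher and 5 lower of 24, 0 and 10 of 25, 3 and 6 of 26, and 1 and 2 of 18 in the same order. Over all genes of these classes 1.35%, 4.83%, 3.63% and 2.76% were higher and 1.76%, 5.05%, 3.06% and 2.81% lower. Without Dnmt3b KO 11 and 12, 7 maternal genes were lower in the whole embryo and edgeR called none higher (3 at an unadjusted p under 0.05), and 2 paternal genes were higher and 5 lower. Without Dnmt1 KO 2, Dnmt3b KO 11 or Dnmt3b KO 1+2, 1 maternal gene was higher. Without Dnmt3b KO 12 alone the paternal counts were 4 and 6, and without Dnmt1 KO 3 they were 7 and 6.

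Neighbours in the Peg3 cluster moved in opposite directions. Zim1 stood at 0.187, 0.299 and 0.152 CPM in Dnmt1 KO against 3.30, 5.30 and 4.92 CPM (−4.25, SE 0.29, edgeR adjusted p = 4.67e-08). Peg3, a paternally expressed zinc finger protein, was higher at 966, 823 and 956 CPM against 338, 417 and 430.1 CPM (1.32, SE 0.11, edgeR adjusted p = 5.63e-07), and in all 4 classes. Peg10, a retrotransposon-derived gene needed for the placenta, stood at 518, 533 and 280.0 CPM against 99.0, 86.3 and 128 CPM (2.19, SE 0.26, edgeR adjusted p = 2.16e-05). Dlk1, a growth regulator of the Notch ligand family, was lower at 20.2, 13.1 and 12.4 CPM against 99.9, 126 and 124 CPM (−2.83, SE 0.26, edgeR adjusted p = 1.47e-06). None of these 4 genes overlapped between the mutants, and the libraries labelled Dnmt3b KO lay within or near WT, with 301 to 393 CPM for Peg3, 77.4 to 143 CPM for Peg10 and 69.4 to 156 CPM for Dlk1.

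Sfmbt2, a polycomb gene imprinted in extra-embryonic tissue, stood at 37.3, 102 and 22.5 CPM in Dnmt1 KO against 10.7, 5.70 and 9.69 CPM (2.73, SE 0.42, edgeR adjusted p = 0.000246). With the cells of ExE classes left out its difference was 0.69 (adjusted p = 0.0256) and no longer called. Meg3, the maternally expressed noncoding RNA of the Dlk1 domain, stood at 979.6, 651 and 708 CPM against 518, 686 and 675 CPM, with overlap. Mest, a paternally expressed hydrolase of mesoderm, stood at 582, 344 and 523 CPM against 527, 565 and 585 CPM in the whole embryo, and was called lower in gut-like cells (−2.03) and higher in immune-like cells (2.20).

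**Figure D4:**
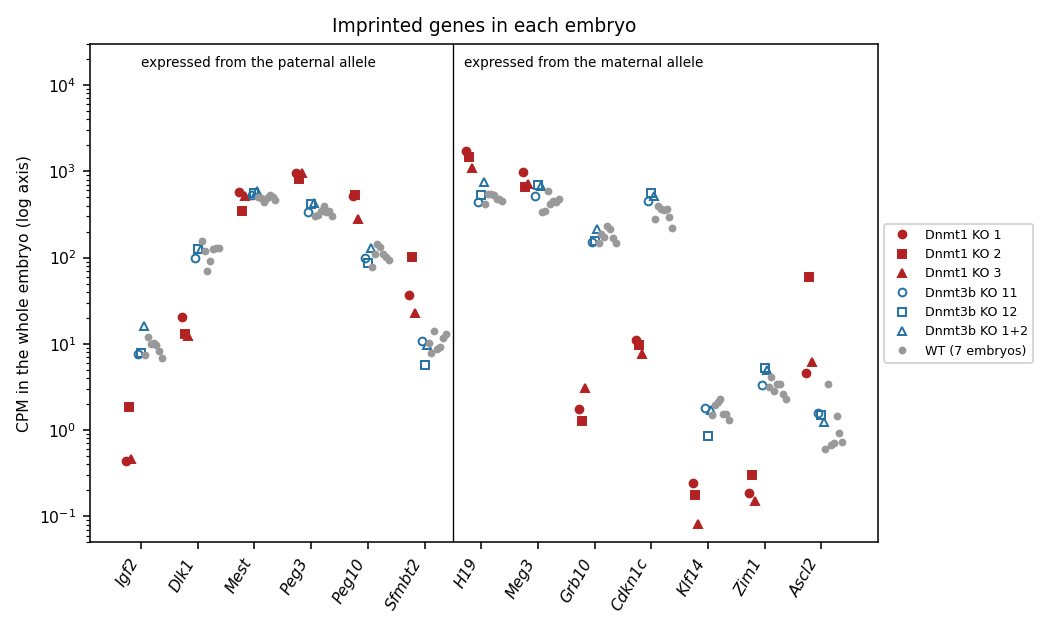
Level of 13 imprinted genes in each embryo in CPM on a log axis, grouped by the allele that is expressed. Filled red symbols are Dnmt1 KO, open blue symbols the replicates labelled Dnmt3b KO and grey points the 7 WT embryos; Igf2, Dlk1, Grb10, Cdkn1c, Klf14 and Zim1 lie lower and Peg3, Peg10, Sfmbt2, H19 and Ascl2 higher in each Dnmt1 KO embryo than in any embryo labelled Dnmt3b KO.

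Part of the Hox genes, which give the body axis its positional identity, were lower in Dnmt1 KO, against 4.94% of all genes. Of the posterior Hox genes, counted with Hoxc8 on the list used, 12 of 14 tested were called lower and none higher (median −2.82), and the count was 11 with ExE cells left out. Of the anterior and middle Hox genes, 12 of 23 were lower and none higher (median −1.27), and the count was 5 with ExE cells left out (median −0.70). This second count was 6 without Dnmt1 KO 2. Hoxa9 stood at 0.916, 0.554 and 1.06 CPM in Dnmt1 KO against 20.5, 7.22 and 21.9 CPM, with 11.04 to 21.4 CPM in WT (−4.22, SE 0.40, edgeR adjusted p = 2.46e-06). Hoxc10 stood at 0.0374, 0.0802 and 0.0938 CPM against 1.79, 1.11 and 2.74 CPM (−4.63, SE 0.47, edgeR adjusted p = 4.23e-06). Both were separated between the groups, and Dnmt3b KO 12 was the lowest of its group for each.

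Hoxc8 stood at 6.10, 3.53 and 4.62 CPM in Dnmt1 KO against 46.1, 37.8 and 47.9 CPM, with 40.5 to 58.2 CPM in WT (−3.11, SE 0.24, edgeR adjusted p = 2.83e-07). Hoxa7 stood at 4.93, 2.61 and 4.81 CPM against 27.7, 20.3 and 25.3 CPM (−2.48, SE 0.25, edgeR adjusted p = 4.4e-06). By class Hoxa7 was called higher in ExE mesoderm-like cells (2.03) and lower in gut-like cells (−3.01). Over the anterior and middle list, ExE mesoderm-like cells had 6 genes higher and 1 lower of 20, against 4.83% and 5.05% of all genes there. In ExE endoderm-like cells 8 of 19 were lower (median −2.58) and in gut-like cells 6 of 19 (−2.07), with none higher. Of all genes there 1.76% and 3.06% were called lower. Over the posterior list, ExE mesoderm-like cells had 1 higher and 3 lower of 8 (median −0.29). On that list 3 of 8 were lower in ExE endoderm-like and 4 of 8 in gut-like cells, with none higher. The lower levels in the whole embryo stood beside the small shares of neural-like, somitic-like and neuromesodermal-like cells in Dnmt1 KO, and the part of these cells in it was not tested.

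Part of the pluripotency genes were higher in Dnmt1 KO. Of 18 tested, 7 were called higher and 2 lower (median 1.55), against 3.85% and 4.94% of all genes. The counts were 5 and 1 of 17 with ExE cells left out. Utf1, a chromatin protein of undifferentiated cells, stood at 17.4, 72.7 and 22.2 CPM against 2.09, 2.85 and 1.45 CPM, with 1.16 to 5.43 CPM in WT (4.25, SE 0.63, edgeR adjusted p = 0.000181). Slc7a3, an arginine transporter of the epiblast, stood at 8.10, 4.74 and 13.8 CPM against 1.92, 1.66 and 1.48 CPM (2.50, SE 0.41, edgeR adjusted p = 0.000366). Neither overlapped between the mutants. The transcription factor Nanog stood at 1.38, 0.714 and 2.60 CPM against 0.153, 0.345 and 0.151 CPM (2.99, edgeR adjusted p = 0.00969) and lost its call without any one of the 6 replicates (2.37 to 3.39, adjusted p 0.0114 to 0.0414). The kinase gene Pim2 stood at 11.96, 8.48 and 23.7 CPM against 3.30, 3.81 and 2.80 CPM (2.27, edgeR adjusted p = 0.00497) and lost it without Dnmt1 KO 3 (1.70, adjusted p = 0.0203) or any replicate labelled Dnmt3b KO. The 2 members called lower, named after their values were seen, were Sox2 and Tdgf1.

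The count of higher pluripotency genes was 4 without Dnmt1 KO 1, 4 without Dnmt1 KO 2, 3 without Dnmt3b KO 11, 3 without Dnmt3b KO 12 and 4 without Dnmt3b KO 1+2. Without Dnmt3b KO 11 and 12 together edgeR called no member, 12 were higher and 2 lower at an unadjusted p under 0.05, and the median was 1.59. Epiblast-like cells made up 9.02% to 16.6% of Dnmt1 KO and at most 0.257% of the libraries labelled Dnmt3b KO, and the part of this in the calls was not tested.

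Part of the trophoblast genes were higher in Dnmt1 KO, beside the larger share of ExE ectoderm-like cells. Of 25 tested, 9 were called higher and none lower (median 0.92, 19 differences above 0), against 3.85% and 4.94% of all genes. With ExE cells left out 2 were higher and 2 lower of 22 (median 0.15). Elf5, the regulator of trophoblast stem cells, stood at 7.01, 31.6 and 7.40 CPM against 1.02, 0.497 and 0.738 CPM (4.44, SE 0.66, edgeR adjusted p = 0.000178). Bmp8b, a signal from the ExE ectoderm, stood at 2.22, 10.1 and 2.17 CPM against 0.214, 0.175 and 0.210 CPM (4.70, edgeR adjusted p = 0.000399), and Wnt7b, a placental Wnt ligand, at 4.19, 18.3 and 3.99 CPM against 1.01, 0.684 and 1.09 CPM (3.36, edgeR adjusted p = 0.00034). For all 3 genes the mutants did not overlap and Dnmt1 KO 2, the embryo with 981 ExE ectoderm-like cells, was the highest. Outside ExE classes the differences of Elf5 and Wnt7b turned to −0.55 and −1.32. With Dnmt3b KO 11 and 12 left out, 1 trophoblast gene was called, 12 were higher and none lower at an unadjusted p under 0.05, and the median was 1.13.

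Targets of p53, which responds to DNA damage and other stress, rose in part. In the whole embryo 8 of 28 were called higher and none lower (median 0.98), against 3.85% of all genes called higher. By class the counts were 10 of 26 in ExE endoderm-like, 10 of 24 in ExE mesoderm-like, 4 of 25 in gut-like and 4 of 20 in immune-like cells, with none lower, against 1.35%, 4.83%, 3.63% and 2.76% of all genes called higher there. The whole-embryo count was 13 without Dnmt3b KO 12, 4 without Dnmt3b KO 11 and 4 without Dnmt3b KO 1+2, and it was 1 with the 2 mutants fitted alone. Eda2r, a receptor of the tumour necrosis factor family, stood at 4.09, 3.18 and 4.84 CPM in Dnmt1 KO against 0.682, 2.19 and 1.00 CPM (1.77, SE 0.33, edgeR adjusted p = 0.00105). Trp53inp1, which promotes p53-dependent cell death, stood at 22.7, 18.3 and 16.7 CPM against 4.69, 6.97 and 4.51 CPM, with 2.83 to 4.34 CPM in WT (1.94, SE 0.20, edgeR adjusted p = 4.23e-06), and was higher in all 4 classes. Neither gene overlapped between the mutants.

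The stress cytokine Gdf15 stood at 2.13, 1.76 and 0.903 CPM in Dnmt1 KO against 0.572, 0.582 and 0.348 CPM (1.77, edgeR adjusted p = 0.00257) and lost its call without Dnmt1 KO 1 (1.54), Dnmt1 KO 2 (1.68) or Dnmt3b KO 1+2 (1.52). Perp, an epithelial junction protein and p53 effector, stood at 14.1, 38.3 and 13.6 CPM against 6.71, 10.8 and 9.42 CPM (1.41, edgeR adjusted p = 0.00262). Its call was lost without the trophoblast-rich Dnmt1 KO 2 (0.73, adjusted p = 0.0128), Dnmt3b KO 1+2 (1.42) or Dnmt3b KO 11 (1.27), and its difference was −0.36 outside ExE classes.

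Zinc finger genes with symbols of the form Zfp9xx, called clustered zinc fingers below, were in part higher in Dnmt1 KO. The list was drawn by symbol alone, and neither position in clusters nor a KRAB domain was checked. Of 59 tested, 15 were called higher and none lower (median 0.67), against 3.85% of all genes called higher. The count was also 15 with ExE cells left out. Zfp936 stood at 7.18, 17.5 and 6.09 CPM against 1.22, 2.58 and 1.56 CPM, with 0.268 to 0.874 CPM in WT (2.65, SE 0.40, edgeR adjusted p = 0.000215). Zfp977 stood at 3.67, 7.51 and 2.50 CPM against 0.747, 1.16 and 0.832 CPM (2.44, edgeR adjusted p = 8.3e-05), and Zfp951 at 7.09, 7.34 and 7.85 CPM against 2.51, 2.60 and 3.62 CPM (1.46, SE 0.18, edgeR adjusted p = 3.73e-05). The 3 genes were separated between the groups. Zfp992 (1.18, edgeR adjusted p = 9.44e-05) fell under the fold change asked of a call without Dnmt1 KO 3 (0.94). The count was 10 without Dnmt3b KO 11 and 8 without Dnmt3b KO 11 and 12. Where such genes are close copies of each other, their counts are uncertain, since reads can fit several.

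Of 26 interferon and viral mimicry genes 1 was called higher and 1 lower (median 0.16), against 3.85% and 4.94% of all genes. Their summed level was 172, 211 and 113 CPM in Dnmt1 KO and 90.8, 102 and 89.9 CPM in the libraries labelled Dnmt3b KO. Without Bst2, the most abundant member, it was 44.0, 41.4 and 38.8 CPM against 43.4, 44.2 and 56.0 CPM, with overlap. EdgeR called none without Dnmt3b KO 11 and 12 (3 higher and 3 lower at an unadjusted p under 0.05, median −0.21). The antiviral membrane protein Bst2 stood at 128, 169.6 and 74.2 CPM in Dnmt1 KO against 47.4, 57.6 and 34.0 CPM (1.52, SE 0.33, edgeR adjusted p = 0.00279), without overlap. Its call was lost without Dnmt1 KO 2 (1.21, adjusted p = 0.0205) or Dnmt3b KO 1+2 (1.30, adjusted p = 0.0173). Tmem173, which encodes the DNA sensor STING, was lower at 0.645, 0.284 and 0.891 CPM against 2.57, 2.07 and 2.16 CPM (−1.82, SE 0.33, edgeR adjusted p = 0.000873).

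Noct and some genes near Dnmt3b differed as well. Noct, a circadian phosphatase acting on NADPH, stood at 101, 117 and 75.3 CPM against 13.2, 16.3 and 16.0 CPM, with 10.5 to 19.8 CPM in WT (2.80, SE 0.22, edgeR adjusted p = 3.98e-07), and was called in all 4 classes. Ahcy, which breaks down S-adenosylhomocysteine, the product and inhibitor of methyl transfer, stood at 23.4, 18.6 and 22.9 CPM against 6.78, 8.06 and 7.44 CPM (1.65, SE 0.14, edgeR adjusted p = 6.5e-07). For Ahcy WT lay with Dnmt1 KO, at 17.7 to 24.8 CPM, so that the libraries labelled Dnmt3b KO were the low ones. It was the only called member of 13 enzymes of methyl donor supply (median 0.16). Ahcy lies at chr2:155059310-155074497, on the chromosome of Dnmt3b. Of 163 genes tested within 5 Mb of Dnmt3b, 21 (12.9%) were called in either direction, against 8.79% of all genes, among them Ahcy, Cdk5rap1 and BC029722. Within 5 Mb of Dnmt1 6 of 98 (6.12%) were called.

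Cdk5rap1, which modifies mitochondrial transfer RNA, stood at 21.9, 19.6 and 20.6 CPM in Dnmt1 KO against 4.92, 5.55 and 4.45 CPM, with 4.09 to 8.35 CPM in WT (2.16, SE 0.28, edgeR adjusted p = 6.03e-05). BC029722, an uncharacterised gene nearby, was lower at 2.58, 2.92 and 1.89 CPM against 7.29, 8.27 and 7.85 CPM, with 2.81 to 5.18 CPM in WT (−1.56, edgeR adjusted p = 0.000237). For BC029722 the libraries labelled Dnmt3b KO were thus above WT, whereas for Cdk5rap1 Dnmt1 KO was.

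Genes lower in Dnmt1 KO in all 4 classes included regulators of growth signalling and chromatin. Spry1, an inhibitor of receptor tyrosine kinase signalling, stood at 4.32, 3.35 and 3.35 CPM against 17.5, 13.3 and 18.9 CPM, with 12.2 to 17.7 CPM in WT (−2.07, SE 0.18, edgeR adjusted p = 8.26e-07). Khdrbs3, an RNA-binding splicing factor, stood at 7.05, 5.77 and 11.3 CPM against 47.9, 65.7 and 48.0 CPM (−2.63, SE 0.41, edgeR adjusted p = 0.000271). Mbd2, a reader that binds methylated CpGs, stood at 16.7, 14.4 and 18.2 CPM against 42.2, 48.5 and 46.7 CPM (−1.38, SE 0.22, edgeR adjusted p = 0.000273), the only one of 10 readers that was called (median −0.01). The mutants did not overlap for any of the 3.

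Samd1, which binds unmethylated CpG islands, stood at 14.6, 14.9 and 12.8 CPM in Dnmt1 KO against 49.7, 65.9 and 54.3 CPM (−1.89, edgeR adjusted p = 0.000603). The kinase subunit Csnk2a2 stood at 34.8, 39.4 and 44.0 CPM against 129, 137 and 131 CPM (−1.64, edgeR adjusted p = 0.00061), the RNA-binding protein Hnrnpa0 at 197, 163 and 301 CPM against 777, 604 and 642 CPM (−1.51, edgeR adjusted p = 0.000827), and the bromodomain protein Brd1 at 30.5, 29.3 and 26.4 CPM against 67.5, 72.3 and 83.2 CPM (−1.26, edgeR adjusted p = 0.00173). In WT these genes, with Khdrbs3 and Mbd2, were also low in the single embryo WT 5, which held 10.8 CPM of Khdrbs3, 23.6 CPM of Mbd2, 17.0 CPM of Samd1, 47.9 CPM of Csnk2a2, 362 CPM of Hnrnpa0 and 30.8 CPM of Brd1. WT enters the difference between the mutants through the shared spread and the common scaling. Without WT 5 the median over all genes moved from 0.02 to −0.0048. Without WT 5 the edgeR adjusted p was 3.01e-07 for Khdrbs3 (−2.67), 1.21e-06 for Mbd2 (−1.41), 1.13e-06 for Samd1 (−1.92), 5.26e-08 for Csnk2a2 (−1.67), 9.14e-05 for Hnrnpa0 (−1.55) and 9.08e-07 for Brd1 (−1.29).

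Lists with few or no calls cover the machinery of methylation and of the cell. By edgeR none of 5 demethylation enzymes was called (1 higher at an unadjusted p under 0.05, none by DESeq2; median 0.12) and none of 21 silencing cofactors (6 higher and 3 lower at an unadjusted p under 0.05, none by DESeq2; median 0.00). None of 23 cell cycle genes was called by edgeR (3 higher and 6 lower at an unadjusted p under 0.05, none by DESeq2; median −0.06) and none of 20 housekeeping genes (1 higher and 5 lower, none by DESeq2; median −0.07). Of the clustered protocadherins 22 of 57 passed the filter on low counts, and edgeR called none (2 lower at an unadjusted p under 0.05, none by DESeq2; median −0.04). Of 27 glycolysis and hypoxia genes Adm alone was called by edgeR, lower (median −0.37), and 2 were higher and 16 lower at an unadjusted p under 0.05 (1 lower by DESeq2). The summed level of this list was 9358, 8910 and 9881 CPM in Dnmt1 KO and 12986, 12166 and 12960 CPM in the libraries labelled Dnmt3b KO, with no overlap and 11385 to 12876 CPM in WT. The Adm call was lost without any Dnmt1 KO embryo, without Dnmt3b KO 1+2 or without Dnmt3b KO 12 (−1.19 to −0.85). Of 4 maternal decidua genes Dcn was lower (5.30, 6.97 and 5.00 CPM in the libraries labelled Dnmt3b KO, 0.773 to 1.59 CPM in Dnmt1 KO), and the median was −0.15. With 5 decidua genes passing the filter it was −0.98, −0.90 and −0.97 without Dnmt1 KO 1, 2 and 3, and −1.05 with 3 lower calls without Dnmt3b KO 11. Neither the list of 4 Y-linked genes nor that of 4 X inactivation genes had a call by edgeR, at an unadjusted p under 0.05 or by DESeq2. These lists compare embryos of both sexes. Over the whole Y chromosome 7 of 13 genes tested (53.8%) were called higher and none lower, among them Usp9y at 10.8, 8.20 and 15.03 CPM in Dnmt1 KO against 0.145, 0 and 0.164 CPM. WT 2, the WT embryo with a Y-linked sum of 91.0 CPM, held 0.0350 CPM of Usp9y, and the other WT embryos had Y-linked sums of at most 0.140 CPM. Xist, the RNA that silences one X chromosome in females, stood at 14.8, 7.07 and 8.75 CPM in the Dnmt1 KO embryos, which all carried a Y, against 0.408 and 0.409 CPM in the Y-bearing Dnmt3b KO 11 and 1+2 and 503 CPM in the female Dnmt3b KO 12. With a Y-linked covariate 1 of the 4 X inactivation genes was called higher (median 0.41).

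2 alpha globins were lower in Dnmt1 KO, beside a smaller share of erythroid-like cells. Hba-x, an embryonic alpha globin, stood at 676, 453 and 725 CPM in Dnmt1 KO against 5321, 8902 and 7860.5 CPM, with 1665 to 18226 CPM in WT (−3.46, edgeR adjusted p = 0.00669), and Hba-a2, an adult alpha globin with a near-identical copy, at 22.4, 23.5 and 24.9 CPM against 205, 496 and 399 CPM (−3.83, edgeR adjusted p = 0.00772). Both were separated between the mutants, and both lost their call without any one of the 6 replicates. Of 8 globins these were the 2 called (median −3.02), and without Dnmt3b KO 11 and 12 edgeR called none (6 lower at an unadjusted p under 0.05). By class 1 of 7 globins was lower in ExE endoderm-like, 6 of 7 in ExE mesoderm-like and 1 of 7 in gut-like cells. Over all genes of these classes 1.76%, 5.05% and 3.06% were called lower, and in the whole embryo 4.94%. In immune-like cells 2 of 7 globins were higher and none lower (median 1.59), against 2.76% of all genes called higher there. The part of RNA released by erythroid cells into droplets of other classes was not tested. Of 19 heme and erythroid regulators none was called by edgeR, 11 were lower at an unadjusted p under 0.05 and 4 by DESeq2 (median −0.97). In immune-like cells 5 of 18 of them were higher and 1 lower. Erythroid-like cells made up 0.348% to 3.94% of Dnmt1 KO and 8.78% to 12.1% of the libraries labelled Dnmt3b KO.

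**Figure D5:**
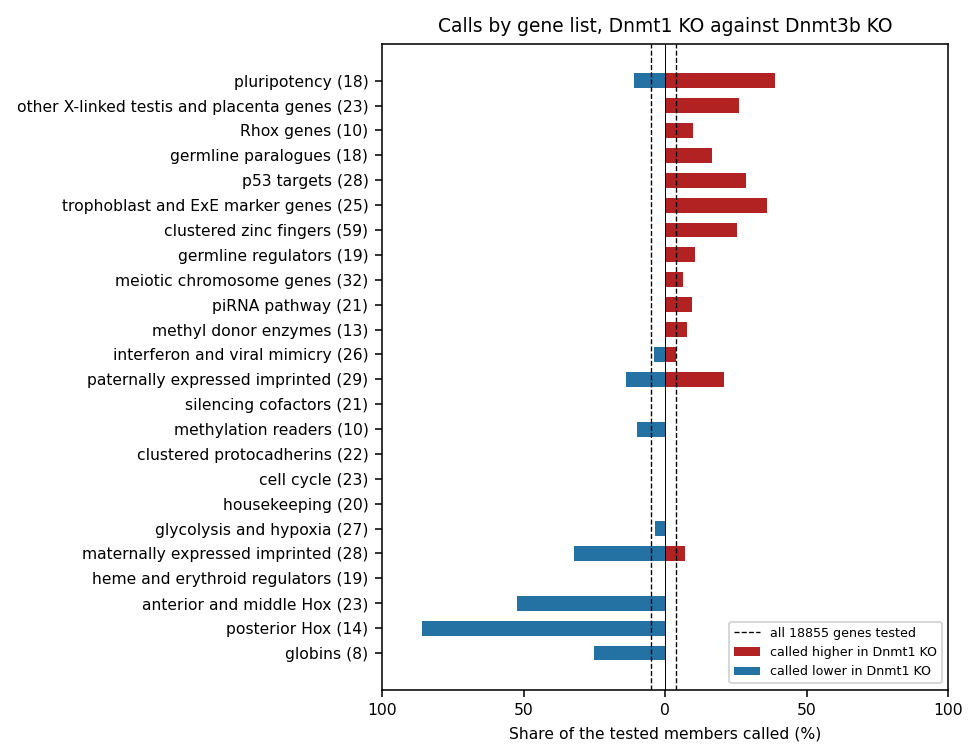
Share of the tested members of each gene list called higher (red, to the right) or lower (blue, to the left) in Dnmt1 KO, in percent, with the number tested in brackets after each list. Dashed lines mark the shares over all 18855 genes, 3.85% higher and 4.94% lower; posterior Hox genes reach furthest to the left with 12 of 14, and pluripotency genes furthest to the right with 7 of 18.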

How the data were processed

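Single-embryo 10x Genomics 3′ libraries were processed by the authors with Cell Ranger, version 3.1.0 per the file headers for all libraries but Dnmt3b KO 12 (5.0.0), and deposited as raw UMI counts per gene and cell barcode for 31053 mouse genes, unnormalized and with no cell annotation; 31011 identifiers matched the mm10 annotation (GENCODE vM21). Human rows of libraries counted on a combined reference were dropped. Cells were kept at 1500 or more UMIs and 30% or less mitochondrial UMIs. Total counts over kept cells ranged from 85250129 to 137196441 per Dnmt1 KO library and from 146628586 to 262283813 per library labelled Dnmt3b KO. Marked doublets (1.2 to 8.5% of cells) were left in, and leaving them out was an alternative.

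Cells were clustered with leidenalg 0.10.2 (Leiden, resolution 2, 2500 variable genes, 50 principal components, 30 neighbours) on 25381 cells, at most 1500 per replicate. The remaining cells took the class of their nearest neighbours, and scanpy 1.11.5 served only to score doublets. Housekeeping, cell cycle, glycolysis and hypoxia genes and markers on no other list could enter the clustering. Genes of the other gene lists, Hox, mitochondrial and ribosomal genes were left out. Classes are called by the markers they express and were rebuilt here, so they can differ from those of the study. Counts were summed per embryo, or per embryo and class with at least 25 cells, filtered with filterByExpr, scaled by TMM and fitted in 1 model of all 4 groups (17 replicates) with edgeR 4.0.16 in R 4.3.3; fold changes are edgeR's, p-values are Benjamini-Hochberg adjusted over all genes of a fit, and calls need an adjusted p below 0.01 with a log2 fold change of 1 or more in size. Class shares were compared by an exact two-sided permutation test. No set test was run.

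The members and lists were chosen with earlier results of these data known. Named were the targeted genes, the 12 genes per direction called in most classes among those without overlap and with at least 5 CPM in the higher group, and for each list up to 4 called members of at least 1 CPM with the largest change and the 2 with the highest level. A list member that falls outside this rule is named where a count is 5 or less, after its value was seen. Prl8a2 is named only as a check for decidua. DESeq2 1.42.0, other scaling, no filter on low counts, thinning, covariates for sex and reference, and leaving out libraries were tried as alternatives. Other tables of the study were not used here.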

Additional observations from a re-analysis of the deposited data

Results flagged for a closer look

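For some named genes 1 WT embryo lay apart from the other 6 by Dixon's criterion, which chance meets in about 1 in 20 groups. WT 5, the WT library with the fewest cells, held 10.8 CPM of Khdrbs3 (the other WT embryos 42.3 to 57.2), 47.9 CPM of Csnk2a2 (123 to 151), 23.6 CPM of Mbd2 (39.3 to 50.8) and 30.8 CPM of Brd1 (65.1 to 86.0). Each of these values lay between Dnmt1 KO and the other WT embryos or near Dnmt1 KO. WT 2 held 5.18 CPM of BC029722 against 2.81 to 3.75 CPM.

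For 3 of the named genes the difference between Dnmt1 KO and the libraries labelled Dnmt3b KO was called in opposite directions in 2 cell classes, and the difference between classes was not tested. Dnmt3b was higher in ExE mesoderm-like cells (log2 difference 1.02) and lower in immune-like cells (−1.27). Mest was lower in gut-like cells (−2.03) and higher in immune-like cells (2.20). Hoxa7 was higher in ExE mesoderm-like cells (2.03) and lower in gut-like cells (−3.01).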

How the results depend on the processing

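The whole-embryo counts of 726 genes higher and 931 lower in Dnmt1 KO were 289 and 417 with a replicate block (Dnmt3b KO 1 and 2 separate), 207 and 375 with the 2 groups fitted alone, and 312 and 496 without Dnmt3b KO 11 and 12; thinning to the smallest library gave 451 higher. Leaving out single libraries gave 397 to 963 higher and 501 to 1237 lower. Same-numbered samples correlated at 0.038 and −0.012 in their deviations from the group means, within the −0.080 to 0.11 of the other pairs. These were 2 pairs, whose Dnmt3b KO libraries share most barcodes, so a pairing of embryos could be neither shown nor excluded. In ExE endoderm-like cells the 193 higher and 252 lower genes were 98 and 109 when thinned, 406 lower with DESeq2, 130 lower with the ribosomal and doublet filter, 428 lower with 2 groups only, and 110 to 170 higher and 77 to 189 lower without single libraries (193 and 211 without Dnmt3b KO 1+2). In ExE mesoderm-like cells the 632 and 661 were 237 and 301 when thinned and 450 to 750 and 413 to 660 without single libraries. In gut-like cells the 487 and 411 were 312 to 550 and 237 to 399 without single libraries (404 lower without Dnmt3b KO 1+2). In immune-like cells the 245 and 250 were 589 and 499 without the low-count filter, 147 and 130 when thinned, and 108 to 167 and 132 to 209 without single libraries (297 and 230 without Dnmt3b KO 1+2). The cause of these shifts was not tested.

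Dnmt3a (0.90) ranged from 0.49 to 1.49 without single libraries and was called at 1.49 without Dnmt3b KO 1+2. Dnmt3b (0.92) was called at 1.02 with a Y-linked covariate and at 1.05 without Dnmt1 KO 1, and ranged from 0.81 to 1.05 without single libraries (0.80 without Dnmt3b KO 1+2). With ExE cells left out, Ascl2 (−0.24), Elf5 (−0.55), Wnt7b (−1.32) and Perp (−0.36) turned. List medians moved by more than their spread for methylation writers (0.66) and decidua genes (−0.96) with Dnmt3b KO 1 and 2 separate, for decidua (−0.61) and housekeeping genes (−0.14) with no low-count filter, and for germline regulators (0.88), heme genes (−1.21) and X inactivation genes (0.41) with the Y-linked covariate. Of the named genes called, 17 of 74 lost the call without at least 1 library of the 2 mutants. With the replicate block 24 of the 74 did, with 2 groups only 23, and without Dnmt3b KO 11 and 12 together 32. With 2 groups only, edgeR's higher calls fell from 8 to 1 for p53 targets, 15 to 5 for clustered zinc fingers, 9 to 2 for trophoblast genes, 6 to 2 for paternal imprinted genes, and to 0 for other X-linked genes, germline paralogues and regulators (13, 6 and 5 at an unadjusted p under 0.05). Lower calls fell from 12 to 6 for anterior and middle Hox genes, 6 to 1 for somitic and 7 to 3 for cardiomyocyte markers, and rose from 2 to 5 for globins. The alternatives without Dnmt3b KO 11 and 12, without Dnmt1 KO 3 and Dnmt3b KO 12, and with Zim1 on the maternal list were chosen after seeing the data. Of the libraries of the 2 mutants, Dnmt1 KO 3 was the shallowest, at a median of 6800 UMIs per cell.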
